A study of Mus musculus with 4 samples.

Results

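Molecular chaperones and heat shock proteins were examined in C2C12, a line of mouse muscle precursor cells (myoblasts) that multiplies in rich medium and forms multinucleate myotubes in medium poor in serum. The genes were chosen by their annotated symbols, with no measured value: the Hsp families a to e and h and the numbered Hsp90 genes, the Dnaja, Dnajb and Dnajc families, the Cct, Pdia and Bag families, and Unc45a, Unc45b, Cryab, Calr and Hyou1, without Hspb7 and Hspg2. This gave 79 genes of 14860 that had a transcript cluster (the set of probes summed into 1 value) of their own on the array. The siMUNC cultures were depleted of MUNC, a long noncoding RNA transcribed upstream of the muscle-determining gene Myod1, and the control cultures are labelled siC; from these names both are taken to have received an siRNA, against MUNC or as control. Each was taken 3 days after a change at 80% confluence to medium with 2% horse serum (differentiating) or in growth medium with 10% fetal bovine serum (proliferating). The 4 groups were siMUNC differentiating, control differentiating, siMUNC proliferating and control proliferating cells, with 1 Affymetrix whole-transcript array each. All 4 came from the same cell line, and knockdown of MUNC itself was not analysed here. Since no group was repeated, the differences have no replicate check and no p-value was computed. The number of arrays limits the precision. Values are the authors' processed values, taken to be on a log2 scale, so a difference of 1 is 2-fold.

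Chaperones bind newly made or unfolded proteins and help them reach or keep their fold. Hsp70 proteins do so in cycles driven by ATP, which J-domain proteins (the Dnaj families) start and which Hsp110 and BAG proteins help to complete by nucleotide exchange. Hsp90 acts later on chosen clients, the ring complex TRiC folds actin and tubulin, small heat shock proteins hold unfolding proteins in solution, and the endoplasmic reticulum (ER) and mitochondria have their own sets. In striated muscle the UNC-45 protein Unc45b works with Hsp90 on the myosin motor, and the small heat shock proteins Cryab, Hspb2, Hspb3, Hspb6 and Hspb8 are abundant there. Chaperone transcription is known to answer to the heat shock factor HSF1 and, for the ER, to the unfolded protein response.

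Promoter windows were at hand for 63 of the 79 genes (RefSeq, build GRCm38.p6, 250 bases before to 50 after each annotated start), 47 of them with 1 window, 14 with 2 and 2 with 3. The first 280 bases of the window are shown for Unc45b, Hspb8, Hspb3 and Dnajb5, which read higher in differentiating than in proliferating control cells by more than 2-fold. The shown stretches lie at chr11:82911003-82911282 (plus strand), chr5:116422835-116423114 (minus), chr13:113663647-113663926 (minus) and, for the last of the 3 Dnajb5 windows, chr4:42950146-42950425 (plus). Capitals mark matches to the motifs searched on both strands. The heat shock element was searched as GAANNTTC or TTCNNGAA, and the E-box in the form CAGCTG alone. The ER stress element was searched as CCAAT and CCACG with 9 bases between them, and the MEF2 site by its consensus.
Unc45b: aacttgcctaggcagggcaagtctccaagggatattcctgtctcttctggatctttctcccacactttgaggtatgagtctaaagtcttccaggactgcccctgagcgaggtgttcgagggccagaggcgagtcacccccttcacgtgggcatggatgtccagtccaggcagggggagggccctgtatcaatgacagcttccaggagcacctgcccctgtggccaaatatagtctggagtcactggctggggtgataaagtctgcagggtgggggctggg
Hspb8: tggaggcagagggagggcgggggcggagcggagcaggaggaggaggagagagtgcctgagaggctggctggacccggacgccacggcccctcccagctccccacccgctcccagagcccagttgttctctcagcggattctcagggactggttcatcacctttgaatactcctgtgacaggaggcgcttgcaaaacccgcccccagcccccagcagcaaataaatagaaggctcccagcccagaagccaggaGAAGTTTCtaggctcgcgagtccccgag
Hspb3: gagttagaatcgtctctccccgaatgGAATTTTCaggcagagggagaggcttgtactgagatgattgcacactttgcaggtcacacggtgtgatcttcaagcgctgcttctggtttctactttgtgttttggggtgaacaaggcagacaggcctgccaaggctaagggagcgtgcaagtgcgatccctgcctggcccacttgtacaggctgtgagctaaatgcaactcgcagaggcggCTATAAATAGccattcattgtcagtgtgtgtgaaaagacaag
Dnajb5: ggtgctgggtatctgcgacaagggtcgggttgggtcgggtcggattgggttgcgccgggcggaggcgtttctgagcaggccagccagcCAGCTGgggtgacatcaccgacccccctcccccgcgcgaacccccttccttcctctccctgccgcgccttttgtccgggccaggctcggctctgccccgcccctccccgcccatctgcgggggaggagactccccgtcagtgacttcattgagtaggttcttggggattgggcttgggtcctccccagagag

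The Unc45b window held no match to these motifs, and other forms of the E-box were not searched in any window. The Hspb8 match is a heat shock element 2 bases past the start, Hspb3 had a heat shock element 224 bases and a MEF2 match 12 bases before it, and Dnajb5 an E-box 162 bases before it. The MEF2 match of Hspb3 also contains the letters TATAAA. For comparison, the windows of 3 stress-type chaperones are shown, the Hsp110 gene Hsph1 (the second of 2 windows) and the ER chaperones Hspa5, which encodes BiP, and Hsp90b1, which encodes Grp94. They lie at chr5:149636286-149636565 (minus), chr2:34771840-34772119 (plus) and chr10:86705415-86705694 (minus).
Hsph1: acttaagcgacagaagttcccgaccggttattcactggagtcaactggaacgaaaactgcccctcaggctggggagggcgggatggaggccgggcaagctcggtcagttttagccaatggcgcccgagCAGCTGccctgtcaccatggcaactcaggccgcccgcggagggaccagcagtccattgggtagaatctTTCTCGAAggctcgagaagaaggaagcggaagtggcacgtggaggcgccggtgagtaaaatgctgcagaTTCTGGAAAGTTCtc
Hspa5: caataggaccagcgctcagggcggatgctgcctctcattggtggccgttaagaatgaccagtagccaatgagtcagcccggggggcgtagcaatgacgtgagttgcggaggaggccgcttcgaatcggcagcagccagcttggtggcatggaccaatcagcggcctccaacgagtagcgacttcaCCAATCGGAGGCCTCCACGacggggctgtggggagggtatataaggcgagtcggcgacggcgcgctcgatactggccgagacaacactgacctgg
Hsp90b1: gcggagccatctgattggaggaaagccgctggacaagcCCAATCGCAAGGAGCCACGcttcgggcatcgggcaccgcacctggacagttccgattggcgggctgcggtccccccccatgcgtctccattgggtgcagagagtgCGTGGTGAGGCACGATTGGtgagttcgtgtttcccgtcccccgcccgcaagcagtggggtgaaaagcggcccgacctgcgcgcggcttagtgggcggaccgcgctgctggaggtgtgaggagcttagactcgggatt

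In Hsph1 the capitals are an E-box and 3 heat shock elements, the last pair overlapping. Hspa5 holds 1 ER stress element and Hsp90b1 2, the second in reverse orientation. A heat shock element was found for 15 of the 63 genes (23.8%), against 17.0% of all 27025 genes with a window, and the E-box for 13 (20.6%, against 18.3%). The ER stress element was found for 4 genes, Calr, Hsp90b1, Hspa5 and Pdia6 (6.35%, against 0.137%), and the MEF2 match for Hspb3 alone (1.59%, against 3.70%). These are matches of letters in a fixed window and say nothing of whether a factor binds.

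Over all 79 genes, the median difference between differentiating and proliferating cells was -0.06 with siMUNC and -0.05 with the control siRNA, beside -0.02 and 0.05 over all 14860 genes. The difference between siMUNC and control had a median of -0.03 in differentiating cells and 0.01 in proliferating cells, beside 0.01 and 0.04 over all genes. A gene was counted as expressed in a comparison where its higher value reached 8.50, the median over all genes of their means on the 4 arrays. Of the 79 genes, 54 reached this level on all 4 arrays (68.4%, against 45.3% of all genes), 7 on some arrays and 18 on none. Among the 54, the gap between a gene's highest and lowest array had a median of 0.35 and was under 1.5-fold for 41 genes (75.9%), against 0.40 and 69.8% of the 6735 genes of the whole array that reached the level throughout. A gap of 2-fold or more was seen for 7 of the 54 (13.0%, against 9.25%).

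**Figure D1:**
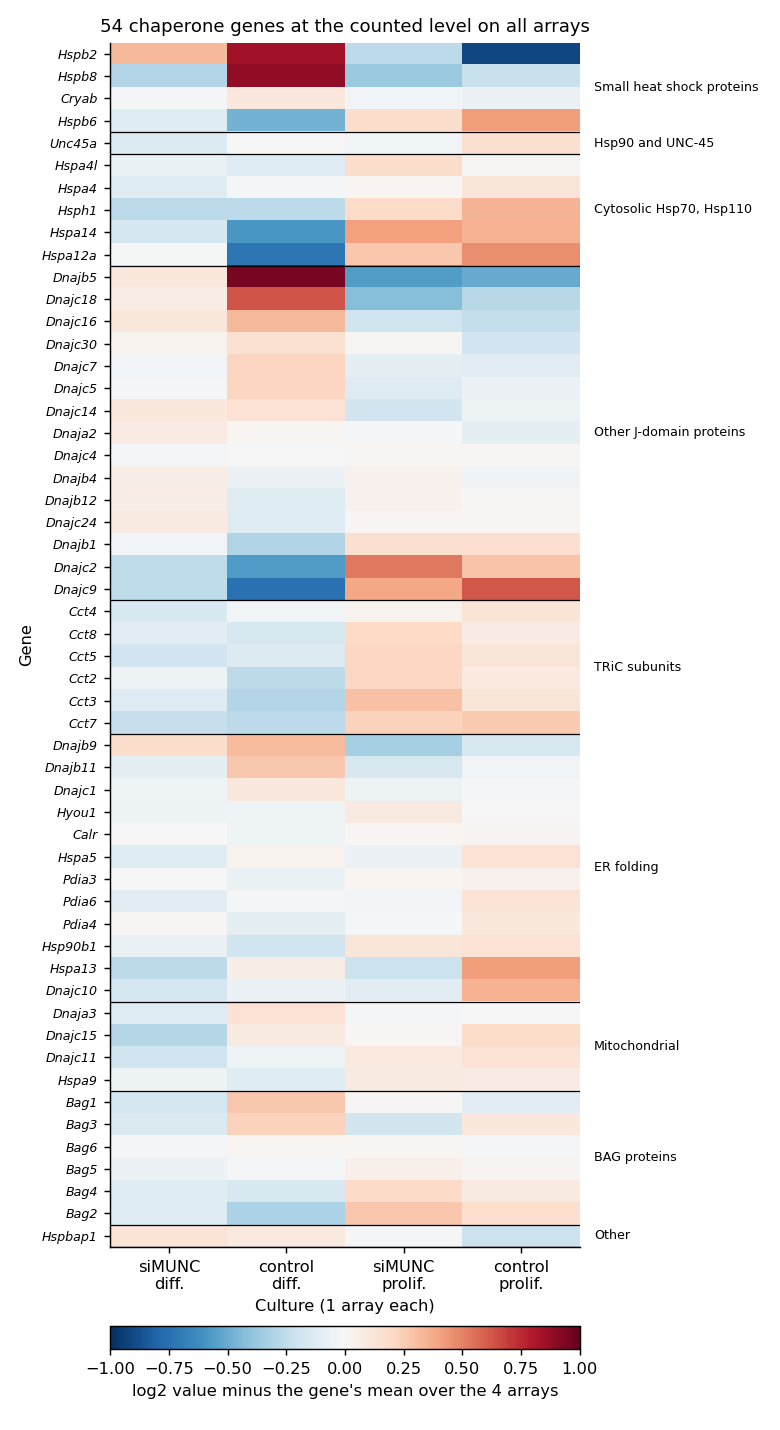
Log2 array values of the 54 chaperone genes at or above 8.50 on all arrays, each as its distance from the gene's own mean over the 4 arrays (columns: siMUNC differentiating, control differentiating, siMUNC proliferating and control proliferating cells, 1 array each; colour scale ends at -1 and 1). Rows are grouped by role and ordered by the differentiation difference in control cells; strong colours lie at Hspb2, Hspb8, Dnajb5 and Dnajc9, while most ER and BAG rows are pale.

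Differentiation in control cells put 4 expressed chaperone genes past 2-fold higher (Unc45b, Hspb2, Dnajb5 and Hspb8) and 2 past 2-fold lower (Dnajc9 and Hspa12a), among 61 that counted as expressed. Of the 7856 genes counted as expressed on the whole array, 5.21% passed 2-fold upward and 6.58% downward, so these shares of the chaperones (6.56% and 3.28%) were not far from the background. At 1.5-fold the counts were 5 higher and 7 lower (8.20% and 11.5%), against 10.5% and 15.3%. Unc45b counts as expressed only through the differentiating control array. Dnajc19, among the 7 lower, does so only through the proliferating control array. In siMUNC cells no expressed chaperone was past 2-fold in either direction (0 of 57), against 2.92% higher and 1.34% lower among 7672 expressed genes. At 1.5-fold 2 were higher, Dnajb5 and Hspb2, and 3 lower, Dnajc9, Dnajc2 and Hspa14, against 6.44% and 5.81%.

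With siMUNC in differentiating cells, Unc45b and Hspb8 were past 2-fold lower and no expressed chaperone was past 2-fold higher among 60, against 2.29% lower and 1.99% higher of all 7635 expressed genes. At 1.5-fold, Dnajb5 joined them on the lower side and Hspa12a was the 1 gene on the higher side, against 5.96% and 6.59%. In proliferating cells 0 of 58 were past 2-fold, against 0.0925% higher and 0.304% lower. At 1.5-fold Hspb2 was higher and Dnajc19 and Hspa13 were lower there, against 0.925% and 2.50%. Dnajc19 counts as expressed there only through the control array. The difference of the differentiation effects, which takes the effect in siMUNC cells minus that in control cells, was past 2-fold lower for Unc45b, Hspb2 and Hspb8 (3 of 61, against 1.78% of 7968 genes) and past 2-fold higher for none (against 2.96%). At 1.5-fold it was also lower for Dnajb5 (against 4.24%) and higher for Hspa12a, Dnajc9 and Hspb6 (against 8.40%).

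Unc45b, the myosin co-chaperone of striated muscle, stood farthest from the rest. It read 8.38 in siMUNC and 10.32 in control differentiating cells, against 7.08 in siMUNC and 6.84 in control proliferating cells. The differentiating control array was thus the 1 array above the level counted as expressed. Differentiating cells were 2.47-fold higher than proliferating cells with siMUNC and 11.2-fold higher with the control siRNA, and siMUNC was 3.82-fold lower than control in differentiating cells. That last difference (-1.93) was the 36th lowest of all 14860 genes. Because 3 of the 4 values are dim, these folds depend on the background: an offset of 50 on the linear scale took the 2 differentiation differences from 1.31 to 1.05 with siMUNC and from 3.48 to 3.01 with the control siRNA. Unc45a, the UNC-45 protein of other cells, read 8.91 and 9.06 in siMUNC and control differentiating cells, against 9.03 and 9.21 in the proliferating ones, a gap of 0.30 at most. Hsp90aa1, the inducible cytosolic Hsp90, was dim on all arrays (5.56 and 5.34 in siMUNC and control differentiating cells, 6.38 and 5.58 in proliferating ones), and its difference of -0.83 between differentiating and proliferating siMUNC cells became 0.0141 once values under the 25th percentile of their array were set to that percentile. Its partner form Hsp90ab1 was not analysed here.

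Smyd1, a muscle methyltransferase that acts with Unc45b and Hsp90 on myosin in zebrafish, is no member of the set but belongs to the same folding step. It read 9.74 in siMUNC and 10.86 in control differentiating cells, against 7.10 and 7.95 in siMUNC and control proliferating cells. In differentiating cells siMUNC was 2.16-fold lower than control. Its differentiation difference was 2.64 with siMUNC and 2.91 with the control siRNA, a gap of -0.27 between the effects, whereas that gap was -2.17 for Unc45b. Both genes were below 8.50 in both proliferating cultures, where the siMUNC difference was -0.85 for Smyd1 and 0.24 for Unc45b. The gaps thus rest in part on dim values. In differentiating cells the siMUNC difference was -1.11 for Smyd1 and -1.93 for Unc45b. Of 8 marker genes of myotubes, Myog, Ckm, Acta1, Mymk, Mylpf, Tnnc2, Casq2 and Atp2a1, the gaps as deposited ran from -1.88 (Ckm) to 0.23 (Mymk), all above that of Unc45b. In each proliferating culture 2 of these 8 markers reached 8.50, so most of these gaps also subtract dim values. Over the alternatives the gap of Unc45b ran from -2.26 to -1.96, at its upper end close to that of Ckm. In cultures that hold myotubes beside unfused cells, fewer myotubes and less RNA per myotube cannot be told apart.

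The small heat shock proteins split into genes higher and lower on differentiation. Hspb2, which binds the myotonic dystrophy kinase and pairs with Hspb3, read 10.35 in siMUNC and 10.87 in control differentiating cells, against 9.76 and 9.11 in siMUNC and control proliferating cells. The 2 differentiating arrays lay above the 2 proliferating ones. The difference was 1.502-fold with siMUNC and 3.37-fold with the control siRNA. Here siMUNC was 1.43-fold lower than control in differentiating cells but 1.57-fold higher in proliferating cells, so the smaller step with siMUNC came from both ends. In RefSeq the span of Hspb2 lies inside that of its neighbour Cryab, and whether any probe reads both is not known. Cryab, the αB-crystallin that protects desmin, did not share the pattern: it read 12.78 and 12.91 in siMUNC and control differentiating cells and 12.77 and 12.74 in siMUNC and control proliferating cells, a gap of 0.17 at most.

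Hspb8, which works with Bag3 in clearing damaged muscle proteins, read 10.82 in siMUNC and 12.001 in control differentiating cells, against 10.74 and 10.89 in siMUNC and control proliferating cells. Differentiating control cells stood alone, with the other 3 arrays within 0.15 of each other. Differentiating cells were 1.06-fold higher with siMUNC and 2.16-fold higher with the control siRNA, and siMUNC was 2.27-fold lower than control in differentiating cells. Its partner Bag3 read 10.57 and 10.94 in siMUNC and control differentiating cells, against 10.53 and 10.82 in proliferating ones. Bag3 was thus lower with siMUNC in both states, by 1.30-fold and 1.22-fold, and differed by 0.12 at most between the states.

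Hspb3, known as a partner of Hspb2 in muscle, was dim on all arrays but ordered like a muscle gene. It read 7.23 in siMUNC and 7.78 in control differentiating cells, against 6.003 and 6.40 in siMUNC and control proliferating cells, and both differentiating arrays were higher (2.34-fold with siMUNC and 2.596-fold with the control siRNA). Unlike Hspb2 and Hspb8, its 2 differentiation differences were close as deposited (1.23 and 1.38), although an offset of 50 set them at 0.81 and 1.002. Over the alternatives the gap between these effects ran from -0.54 to -0.06, so their closeness depends on the treatment of dim values. The siMUNC difference of Hspb3 in proliferating cells likewise ran from -0.48 to -0.008. Hspb6, also called Hsp20, went the other way: it read 11.23 in siMUNC and 10.88 in control differentiating cells, against 11.52 and 11.76 in siMUNC and control proliferating cells. It was 1.23-fold lower in differentiating cells with siMUNC and 1.85-fold lower with the control siRNA. Over the 5 small heat shock genes, the median difference between siMUNC and control was -0.52 in differentiating and -0.15 in proliferating cells, and without the dim Hspb3 it was -0.32 and -0.06.

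**Figure D2:**
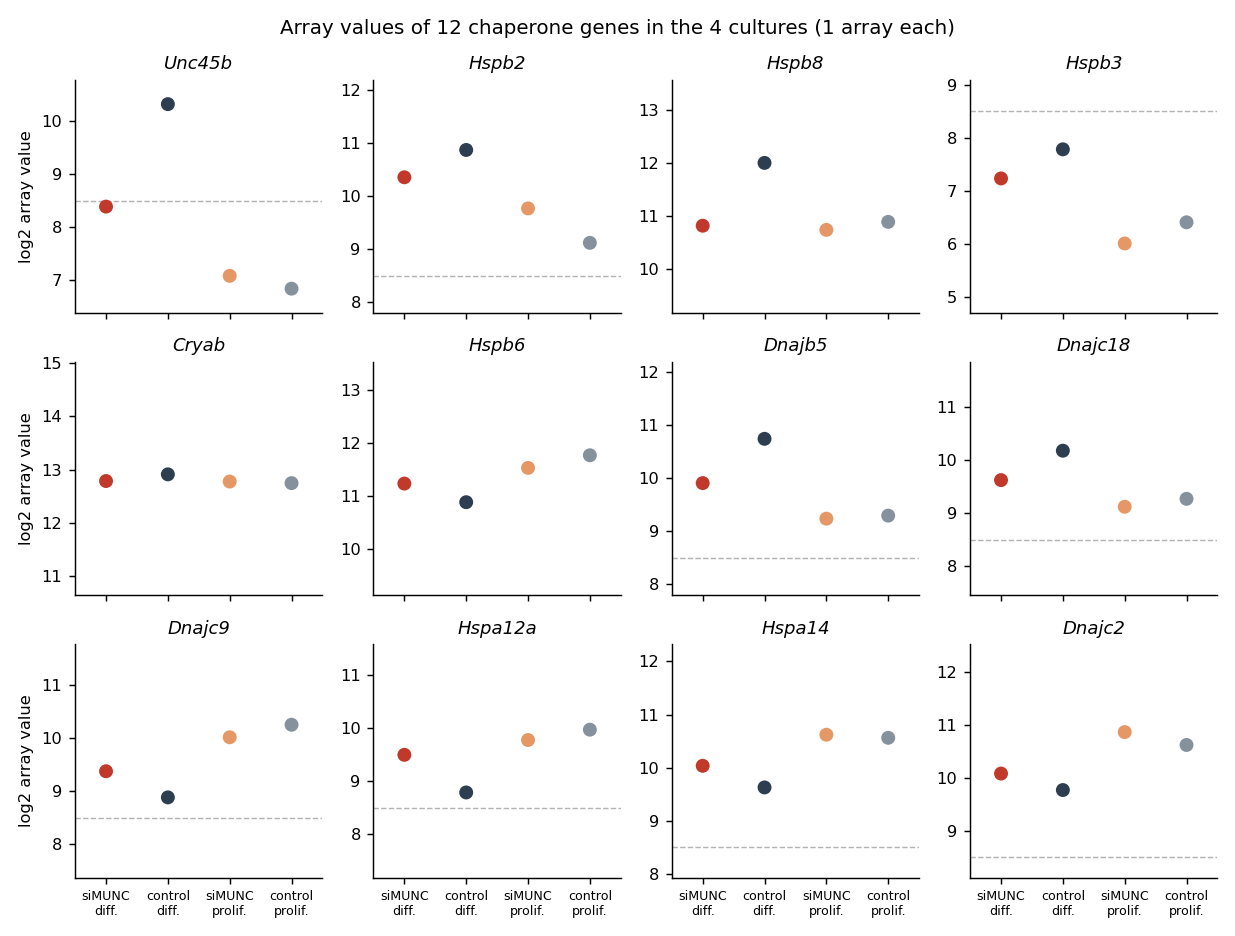
Log2 array values (y axis, each panel spanning the same range) of 12 chaperone genes in siMUNC differentiating, control differentiating, siMUNC proliferating and control proliferating cells (x axis, 1 array per point; the dashed line is the level of 8.50 counted as expressed). Unc45b, Hspb8 and Dnajb5 are highest in differentiating control cells (10.32, 12.001 and 10.74), Cryab is level across the cultures, and Dnajc9 and Hspa12a are lowest in differentiating control cells (8.89 and 8.79).

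The 30 J-domain genes not listed with the ER folding or mitochondrial genes are a remainder, not grouped by place in the cell. Of these 30, 19 were higher and 11 lower in differentiating control cells (median 0.15). Of all 14860 genes, 8310 were higher and 6547 lower (median 0.05). The 15 of the 30 at the counted level on all arrays split into 8 higher and 7 lower (median 0.10). Dnajb5, which in rodent heart takes part in the shuttling of the histone deacetylase HDAC4, read 9.90 in siMUNC and 10.74 in control differentiating cells, against 9.23 and 9.29 in siMUNC and control proliferating cells. Both differentiating arrays lay above both proliferating ones, by 1.59-fold with siMUNC and 2.73-fold with the control siRNA, and siMUNC was 1.78-fold lower than control in differentiating cells. Dnajc18 had the same order of arrays at smaller size, with 9.62 and 10.18 in siMUNC and control differentiating cells, against 9.12 and 9.27 in proliferating ones. Its differentiation difference was 0.50 with siMUNC and 0.91 with the control siRNA. Dnajc28 was dim throughout (7.85 and 8.42 in siMUNC and control differentiating cells, 7.50 and 7.05 in proliferating ones), with 0.36 against 1.37.

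Dnajc9, a co-chaperone of histones H3 and H4 known from human cells, had the lowest differentiation difference of any chaperone in control cells. It read 9.38 in siMUNC and 8.89 in control differentiating cells, against 10.02 and 10.26 in siMUNC and control proliferating cells. It was 1.56-fold lower on differentiation with siMUNC and 2.58-fold lower with the control siRNA, and siMUNC was 1.41-fold higher than control in differentiating cells. The order of its arrays was that of the proliferation markers Mki67, Top2a, Tk1, Mcm3 and Aurka, whose median differentiation difference was -1.13 with siMUNC and -2.83 with the control siRNA. Other chaperones, Hspa12a and Hspb6 among them, had the same order of arrays. The part of the dividing cells in the Dnajc9 difference was not tested.

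Dnajc2 and the Hsp70 gene Hspa14, which in human cells encode the 2 parts of a complex at the ribosome's exit for new chains, were both lower on differentiation. Dnajc2 read 10.08 and 9.76 in siMUNC and control differentiating cells, against 10.86 and 10.61 in proliferating ones, 1.72-fold and 1.80-fold lower. A second, dim cluster of Dnajc2 exists, and the mean of both gave -0.43 with siMUNC and -0.55 with the control siRNA. Hspa14 read 10.03 and 9.62 in siMUNC and control differentiating cells, against 10.62 and 10.56 in proliferating ones, 1.502-fold and 1.91-fold lower. Both genes read higher with siMUNC than with the control siRNA in differentiating cells, by 0.31 and 0.41.

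Of the other J-domain genes, Dnajb1, a main cytosolic partner of Hsp70 and a known HSF1 target, read 10.37 and 10.09 in siMUNC and control differentiating cells, against 10.55 in each of the proliferating cultures. Dnajc4 had the smallest gap of any chaperone at the counted level on all arrays (0.04), and Dnajb4 was next among the J-domain genes with 0.12. Dnajb2, which clears ubiquitinated clients and is best known from nerve and muscle, read 8.30 and 8.68 in siMUNC and control differentiating cells and 8.18 and 8.48 in proliferating ones, lower with siMUNC in both states. Dnaja1 and Dnaja4 lay near the 8.50 level, with 8.23 and 8.55 for Dnaja1 and 8.62 and 9.14 for Dnaja4 in siMUNC and control differentiating cells.

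The cytosolic Hsp70 and Hsp110 genes were mostly lower on differentiation. All 5 that reached the level throughout (Hspa4, Hspa4l, Hspa12a, Hspa14 and Hsph1) were lower in differentiating than in proliferating cells, with medians of -0.28 for siMUNC and -0.61 for the control siRNA. Over all 8 genes, dim ones included, the medians were -0.26 (7 lower) and -0.14 (6 lower). Of all 14860 genes, 7982 were lower with siMUNC and 6547 with the control siRNA. Of the 54 chaperones at the counted level on all arrays, 34 and 35 were lower (medians -0.07 and -0.12). Hspa12a, a distant relative of Hsp70, read 9.497 in siMUNC and 8.79 in control differentiating cells, against 9.78 and 9.97 in siMUNC and control proliferating cells. The differentiating control array was apart from the other 3, 2.27-fold below its proliferating counterpart, against 1.21-fold with siMUNC. In differentiating cells siMUNC was 1.64-fold higher than control. Hsph1, the Hsp110 exchange factor, read 10.34 in each differentiating culture, against 10.79 and 10.94 in siMUNC and control proliferating cells. Hspa1a, the stress-inducible Hsp70, was near the counted level (8.28 and 8.68 in siMUNC and control differentiating cells, 8.55 and 8.72 in proliferating ones), and its near-identical copy Hspa1b may share its probes. Hspa8, the constitutive Hsp70, was not analysed here.

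The TRiC subunits were lower together by small amounts. All 6 subunits at the counted level (Cct2, Cct3, Cct4, Cct5, Cct7 and Cct8) were lower in differentiating cells. Their differences ran from -0.47 to -0.19 with siMUNC (median -0.36) and from -0.53 to -0.16 with the control siRNA (median -0.31). The medians of all genes were -0.02 and 0.05. Of the 54 chaperones at that level on all arrays, 34 were lower with siMUNC and 35 with the control siRNA. Of the 6 subunits, Cct7 differed most with either siRNA. It read 11.22 and 11.20 in siMUNC and control differentiating cells, against 11.69 and 11.72 in proliferating ones. Cct4 differed least, with 11.95 and 12.08 in siMUNC and control differentiating cells, against 12.14 and 12.24 in proliferating ones. None was past 1.5-fold, against 5.81% of all expressed genes past 1.5-fold lower with siMUNC and 15.3% with the control siRNA. Between siMUNC and control the 6 subunits lay from -0.13 to 0.21 in differentiating and from -0.10 to 0.17 in proliferating cells, and the gap between the 2 differentiation effects was 0.15 at most in size. Cct6b, a testis form, and Cct8l1 were dim on all arrays, and Cct6a and Tcp1, the remaining subunits of the ring, were not analysed here.

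The 12 genes listed as ER folding all reached the counted level on all arrays, and none of them was past 1.5-fold on differentiation. Of all expressed genes, 6.44% were past 1.5-fold higher and 5.81% lower with siMUNC, and 10.5% and 15.3% with the control siRNA. Calr, the lectin chaperone calreticulin, read 13.19 and 13.15 in siMUNC and control differentiating cells, against 13.22 in each proliferating culture. Hspa5 (BiP) read 12.49 and 12.65 in siMUNC and control differentiating cells, against 12.55 and 12.75 in proliferating ones, and Hsp90b1 (Grp94) 12.71 and 12.58, against 12.90 and 12.92. The disulfide isomerases Pdia3, Pdia4 and Pdia6 and the exchange factor Hyou1 differed by 0.20 at most on differentiation. The 4 genes with an ER stress element in the window shown or described above (Calr, Hsp90b1, Hspa5 and Pdia6) were lower by 0.02 to 0.19 with siMUNC and by 0.07 to 0.35 with the control siRNA.

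Dnajb9, a BiP co-chaperone known to be induced by the unfolded protein response, was the highest of the 12 listed ER folding genes on differentiation. It read 12.12 and 12.26 in siMUNC and control differentiating cells, against 11.61 and 11.79 in proliferating ones, with nearly equal differences of 0.51 and 0.48. In proliferating cells, 11 of the 12 ER genes were lower with siMUNC (median -0.13), against 6411 of all 14860 genes (median 0.04), dim ones included. Of the 54 chaperones at the counted level on all arrays, 29 were lower with siMUNC in those cells (median -0.02). Hspa13, an Hsp70 of the ER, read 10.86 with siMUNC and 11.50 with the control siRNA there, 1.55-fold lower. The ER reductase gene Dnajc10 read 10.46 and 10.92, 1.38-fold lower. In differentiating cells the same 2 genes read 10.81 and 11.14, and 10.39 and 10.51, with siMUNC and control.

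Hspa9, the matrix Hsp70, is 1 of the 5 genes listed as mitochondrial. It read 12.20 and 12.12 in siMUNC and control differentiating cells, against 12.34 and 12.32 in proliferating ones. Dnajc19, part of the import motor, read 7.60 and 7.94 in siMUNC and control differentiating cells, against 7.78 and 8.55 in proliferating ones. It reached the counted level in proliferating control cells alone, where it was 1.71-fold higher than with siMUNC, the widest siMUNC difference of an expressed chaperone in that state. Dnajc15 and Dnaja3 were lower with siMUNC in differentiating cells by 1.30-fold and 1.21-fold. The Hsp60 and Hsp10 genes Hspd1 and Hspe1 were not analysed here.

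The 6 BAG genes, which release substrates from Hsp70, stayed within 1.5-fold in every comparison of 2 arrays except that the extreme arrays of Bag2, a gene that restrains the ligase CHIP, lay 0.59 apart. Bag2 read 9.14 and 8.94 in siMUNC and control differentiating cells, against 9.52 and 9.42 in proliferating ones. Bag1 had opposite signs of differentiation in siMUNC (-0.19) and control cells (0.38), with 10.41 and 10.85 in siMUNC and control differentiating cells and 10.60 and 10.48 in proliferating ones. Bag5 and Bag6 varied by 0.10 and 0.04 over the 4 arrays.

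Since the differentiation effects in siMUNC and control cells share no array, they can be set side by side over the 79 genes. They correlated at r = 0.84 (Spearman's rho 0.81) across genes, which are not independent replicates, and at 0.81 without Unc45b, against 0.76 for all genes. The signs were the same for 63 of 79 genes, against 10191 of all 14860. The difference was smaller in size in siMUNC cells for 56 of 79 chaperones, as for 10339 of all 14860 genes. Among the 12 expressed chaperones past 1.5-fold in control cells, 5 higher and 7 lower, 12 of 12 had the same sign and a smaller size in siMUNC cells. A choice of genes by their size in control cells favours this count. The share among all expressed genes past 1.5-fold in control cells is not given here, so the count has no background beside it. Of the 12, 6 were past 1.5-fold in the same direction with siMUNC, Unc45b among them from values below 8.50. Unc45b and Dnajc19 are among the 12 through 1 control array each.

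**Figure D3:**
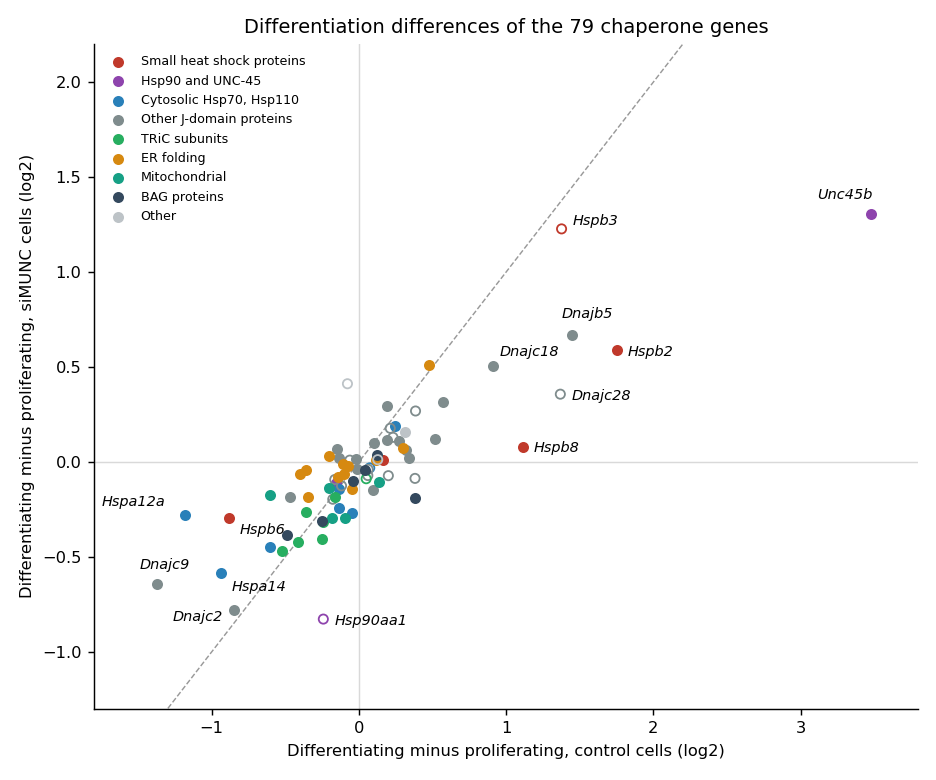
Differentiating minus proliferating log2 difference of the 79 chaperone genes in siMUNC cells (y axis) against control cells (x axis), coloured by role, with open symbols for the 18 genes below 8.50 on all arrays and a dashed line at equal differences (the axes have different scales). Unc45b lies at 1.31 and 3.48, Hspb8 at 0.08 and 1.11 and Hspb3 at 1.23 and 1.38; Dnajb9 is just above the line at 0.51 and 0.48.

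By role, the siMUNC difference in differentiating cells had its lowest medians for the small heat shock proteins (-0.52 over 5 genes) and the mitochondrial genes (-0.27 over 5), and lay between -0.15 and 0.12 for the other 7 groups. Over the 4 genes of each that reached the counted level on all arrays, these lowest medians were -0.32 and -0.22. In proliferating cells the medians lay within 0.24 of 0 in each group, and the highest, that of the Hsp90 and UNC-45 group, was the dim value of Unc45b, with Unc45a, the gene of that group at the counted level, at -0.19. Of the genes at or above 8.50 in differentiating cells, the 3 with the lowest siMUNC difference were Unc45b, Hspb8 and Dnajb5, all of which read higher on differentiation in control cells. The 2 comparisons share the differentiating control array, so each value is given for itself.

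**Figure D4:**
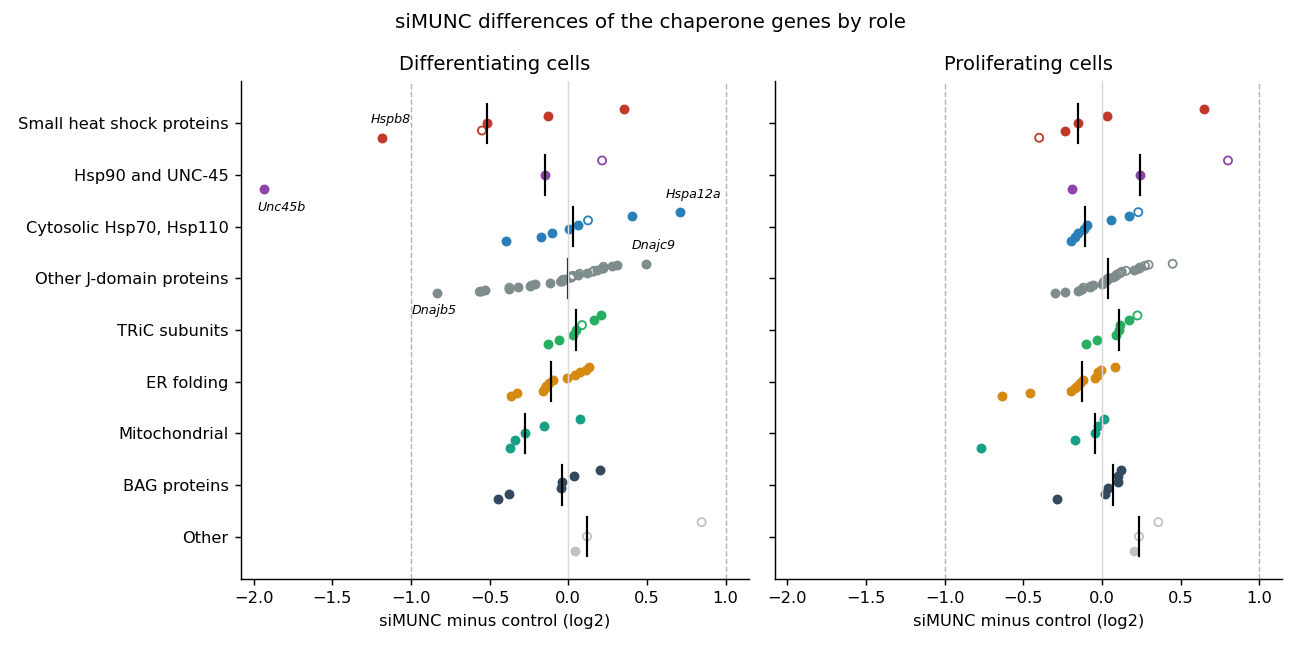
siMUNC minus control log2 difference (x axis) of each chaperone gene by role (y axis) in differentiating (left) and proliferating cells (right); points are genes, open points those below 8.50 on all arrays, black bars the group medians and dashed lines the 2-fold limits. Unc45b (-1.93) and Hspb8 (-1.18) are past the lower limit in differentiating cells, and no gene is past either limit in proliferating cells.

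Other genes of the folding pathways were read from 5 further lists. The first held 21 measured genes of heat shock factors and Hsp90 co-chaperones. In differentiating control cells 1 of 19 expressed was past 2-fold higher, Smyd1, and 1 lower, Fkbp5 (-1.05). Of all expressed genes, 5.21% were past 2-fold higher there and 6.58% lower. At 1.5-fold Hsf4, a heat shock factor best known from the lens, was also higher there (0.16 with siMUNC, 0.85 with the control siRNA). Fkbp4 (-0.76) and Tomm70a (-0.60) were lower. The shares of all expressed genes at 1.5-fold were 10.5% higher and 15.3% lower. In differentiating cells Hsf4 was 1.70-fold lower with siMUNC (8.26 against 9.02). Between the control cultures, Smyd1 and Hsf4 count as expressed only through the differentiating array and Fkbp5 only through the proliferating one. Hsf1 was not analysed here. Of 9 prefoldin and related genes, which hand clients to TRiC, 2 were past 1.5-fold lower in control cells, against 15.3% of all expressed genes. These were Pfdn4 (-0.35 with siMUNC, -0.76 with the control siRNA) and Vbp1 (-0.37 and -0.61).

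Of 20 further ER folding genes, Herpud1, a membrane protein of ER-associated degradation, was past 1.5-fold higher in differentiating control cells (0.29 with siMUNC, 0.88 with the control siRNA). Edem1 (-0.24 with siMUNC, -0.96 with the control siRNA), Ero1a (-0.30 and -0.72) and Txndc12 (-0.19 and -0.60) were past 1.5-fold lower in control cells. In differentiating cells siMUNC was 1.5-fold or more lower for Herpud1 (-0.68) alone. Of 9 measured regulators of the unfolded protein response, none was past 1.5-fold on differentiation. The shares of all expressed genes were 6.44% higher and 5.81% lower with siMUNC, and 10.5% and 15.3% with the control siRNA. In differentiating cells Eif2ak3, the kinase PERK, was higher with siMUNC (0.71) and Chac1, a target of Atf4, lower (-0.62). Of all expressed genes, 6.59% were past 1.5-fold higher in that comparison and 5.96% lower. Of the partners of Bag3, 3 were measured and none was past 1.5-fold in any comparison.

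The labelled cell type was borne out by its markers: Myod1, Myf5, Des, Itga7, Cdh15 and Ncam1 were at or above 8.50 on all arrays. The summed linear level of the 8 myotube markers was 29028 in siMUNC and 58565 in control differentiating cells, against 2008 and 2658 in proliferating ones. Dnajb5 had the same order of the 4 arrays, as had Dnajc18 and the dim Hspb3 among others. Unc45b and Hspb2 shared it in differentiating cells and read higher with siMUNC in proliferating cells, where the marker sum was lower. In proliferating cells Unc45b was dim (7.08 and 6.84 with siMUNC and control), and 2 of the 8 markers reached 8.50. Of the 8 markers, 3 also read higher with siMUNC there, Ckm (0.25), Acta1 (0.11) and Tnnc2 (0.38), and 5 read lower. The summed linear level of the 5 proliferation markers was 4677 and 2099 in siMUNC and control differentiating cells, against 9804 and 12901 in proliferating ones. Dnajc9 had the same order of the 4 arrays, as had other chaperones, Hspa12a, Hspb6, Hsph1, Cct7, Dnajb1 and Hsp90b1 among them. Hspa14 and Dnajc2 shared it in differentiating cells and read higher with siMUNC in proliferating cells. The part of the markers' cells in these results was not tested. Of 5 macrophage markers, Cd68 and Cd14 reached 8.50 on some arrays, with Csf1r, Adgre1 and Ptprc at 6.22 or below, and of 3 osteoblast markers none did. Of 5 adipocyte markers, Pparg did on every array and Plin1 on 2, with Adipoq, Fabp4 and Lep at 5.37 or below.

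The 18 genes below 8.50 on all arrays were Cct6b, Cct8l1, Dnajb3, Dnajb7, Dnajb8, Dnajb13, Dnajc5b, Dnajc5g, Dnajc6, Dnajc12, Dnajc17, Dnajc22, Dnajc27, Dnajc28, Hsp90aa1, Hspa12b, Hspb3 and Hspb11. In proliferating cells 16 of the 18 read higher with siMUNC (median 0.23), against 8445 of all 14860 genes (median 0.04). Whether dim genes of the whole array read higher there was not tested. Of 98 protein-coding genes that fit the symbol rule in the RefSeq table, 19 had no transcript cluster of their own among the named ones and were not analysed here, Hspb1, Hspa8, Hsp90ab1, Hspd1 and Hspe1 among them.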

How the data were processed

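Gene expression was measured on 4 arrays, 1 per group, so groups were taken from the sample labels and n was 1 throughout. The deposited table holds log2 values per transcript cluster, which the authors made, per the submitters' processing notes, with Expression Console from Affymetrix. For its version, background correction, normalization and genome build, the sources used here give nothing. The log2 scale was inferred from the values (2.56 to 14.3), and the sorted columns differed from their mean by 0.142 at most. Array medians ran from 7.96 to 8.03, and correlations between arrays from 0.964 to 0.988.

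Of 23332 clusters, 14996 had 1 gene in the platform annotation, giving 14860 genes; where a gene had several clusters the one with the highest mean was used. All 79 members were found in RefSeq under the same symbol. Comparisons are differences of log2 values, computed with pandas 2.3.3, and genes were counted past 2-fold and 1.5-fold among expressed genes. The counting was tested on simulated data. Genes named are those past 2-fold, the 5 highest and lowest of each comparison, the extremes of each role group and a fixed list of main chaperones. Other members were named for completeness after their values were seen. The MEF2 motif, the comparison of Unc45b with Smyd1 and the summaries of genes at the level on all arrays were added after the values were seen. The members and lists were chosen with earlier results of these data known. Alternatives were 3 renormalizations (limma 3.58.1), an offset, a floor, 2 filters and averaging clusters.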

Additional observations from a re-analysis of the deposited data

How the results depend on the processing

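The 25 counts and medians were recomputed under 8 alternatives, and a count was taken as changed beyond 1.5 times, a median or gene beyond 0.2 log2 units. Cyclic loess, quantile normalization, the floor and the mean over clusters changed no count or median beyond these limits, although quantile normalization and the floor turned the sign of the members' median for differentiation in control cells (0.004 and 0.04, from -0.05). The members past 1.5-fold higher on differentiation in siMUNC cells numbered 1 rather than 2 under median centring, the offset of 50 and a filter at the 75th percentile, and 4 with no filter. Those past 2-fold higher in that comparison numbered 2 rather than 0 with no filter (the dim Unc45b and Hspb3). With siMUNC in proliferating cells, 1 rather than 2 were past 1.5-fold lower under median centring and the stricter filter, and 2 or 0 rather than 1 past 1.5-fold higher with no filter or the stricter one. With siMUNC in differentiating cells, those past 1.5-fold higher numbered 2 or 0 rather than 1 under the same 2 filters. The stricter filter left 1 rather than 2 past 2-fold lower on differentiation in control cells. The floor turned Hsp90aa1 on differentiation in siMUNC cells to 0.0141, from -0.83, and Cct8l1 with siMUNC in differentiating cells to -1.5e-05, from 0.85, both dim genes. Of 210 values of named genes, 13 moved under the offset, 12 under the floor and 3 under the mean over clusters. Filters change counts through the number of genes kept. Background signals were not at hand, so dim values can be judged by their height alone. No paired analysis was possible because each group has 1 array. Median centring set the median of all genes at 0.10 for siMUNC in proliferating cells and at -0.12 for the difference of the effects, with the deposited values at 0.04 and -0.03.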

Other observations

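The 15 chaperone genes with a heat shock element in their promoter window had a median differentiation difference of -0.09 in siMUNC and -0.08 in control cells, beside -0.06 and -0.04 for the 63 with a window. They ran from -0.45 (Hsph1) to 1.23 (Hspb3) with siMUNC and from -0.89 (Hspb6) to 1.38 (Hspb3) with the control siRNA, so genes at both ends of the range hold the motif. For the 13 genes with an E-box the medians were -0.01 and -0.01, with Dnajb5 (0.67 and 1.45) and Hspa12a (-0.28 and -1.18) at opposite sides.

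Differentiation had opposite signs in siMUNC and control cells for 16 of the 79 genes (the same sign was seen for 63, against 10191 of all 14860 genes), and in 0 of the 16 did both differences reach 0.3. The nearest was Bag1 (-0.19 and 0.38). Dnajc12, dim on all arrays, had -0.09 and 0.38.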
